A study of Mus musculus with 12 samples.

Results

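DNA replication and repair genes are 42 genes given by symbol. They comprise the origin licensing factors and the MCM helicase, its activators, the replicative polymerases, the sliding clamp and its loader, enzymes of deoxynucleotide supply, regulators of S phase entry, and genes of checkpoint and repair. All 42 had a probe on the array, which carried 34740 gene names. Of these, 18110 genes were tested, 35 of the 42 among them.

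RNA from liver of F2 males of the mouse strain C3H/HeN, reared to about 74 weeks, was hybridised to 12 Agilent 1-colour arrays. The 4 groups of 3 arrays were tumors of the arsenite line (arsenite tumor), the liver beside tumors in that line (arsenite non-tumor), liver labelled normal in that line (arsenite normal), and non-tumor liver of the control line (control non-tumor). In the arsenite line the pregnant F0 dams had 85 ppm sodium arsenite in their tap water between days 8 and 18 of gestation, and their F1 offspring were mated at 10 weeks of age. In the control line the F0 dams drank tap water. The F1 of the arsenite line were thus in utero during the exposure, while no F1 or F2 mouse of either line was itself given arsenite. All groups share strain, sex and age. Normal liver and tumors of the control line were not analysed here.

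Before a cell divides, the origin recognition complex, Cdc6 and Cdt1 load the MCM2-7 ring onto origins, and in S phase Cdc45, GINS and Mcm10 turn the ring into an active helicase. Primase and the polymerases then copy the strands, held to DNA by the clamp Pcna, which the RFC complex loads. Ribonucleotide reductase, thymidylate synthase and thymidine kinase supply the deoxynucleotides. Cyclin E with its kinase and the E2F factors switch many of these genes on at the G1/S boundary. Most hepatocytes of an adult liver are out of the cycle, and the set is known to be induced together when the liver regenerates.

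Levels are given as the log2 of the processed signal relative to the 75th percentile of the same array, so that 0 is the level of that percentile. A gene is called higher or lower at an adjusted p under 0.05. Samples carry the numbers 1 to 3 within a group, and the labels do not say whether numbers stand for separate mice, so p-values measure the spread between these samples, which may be technical. Per the headers, tumors lay on slide 3, normal liver of the arsenite line on slide 1 and both non-tumor groups on slide 2. Slide and group therefore cannot be told apart in comparisons with tumors or normal liver. In bulk tissue, more cycling cells and more RNA per cell cannot be told apart.

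Promoter sequences are shown first, because E2F factors bind close to the start of many replication genes and the members of the MCM ring moved unequally in tumors. The window searched was 250 bases before to 50 bases after each RefSeq gene start (GRCm38.p6), for TTTCCCGC, TTTCGCGC, TTTGCCGC and TTTGGCGC on both strands. This is the classical E2F consensus, and a palindromic site can match on both strands with overlap. Of the 34 members in the table, 15 held a match, or 44.1%, against 2.60% of all 27025 genes in it. Mcm4, Gins1, Gins2, Pole, Rfc2, Ccne2, Fancd2 and Exo1 are not in the table. The 250 bases upstream are given in the direction of transcription, with matches on either strand in capitals, for 3 MCM ring subunits with a match and for Mcm10, a helicase activator without one.
Mcm5, chr8:75109259-75109508, plus strand: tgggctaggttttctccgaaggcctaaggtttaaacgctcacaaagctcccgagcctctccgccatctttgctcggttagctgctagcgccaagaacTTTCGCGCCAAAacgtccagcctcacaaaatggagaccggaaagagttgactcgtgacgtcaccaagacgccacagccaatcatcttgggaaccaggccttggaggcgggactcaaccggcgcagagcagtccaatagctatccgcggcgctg
Mcm6, chr1:128359706-128359955, minus strand: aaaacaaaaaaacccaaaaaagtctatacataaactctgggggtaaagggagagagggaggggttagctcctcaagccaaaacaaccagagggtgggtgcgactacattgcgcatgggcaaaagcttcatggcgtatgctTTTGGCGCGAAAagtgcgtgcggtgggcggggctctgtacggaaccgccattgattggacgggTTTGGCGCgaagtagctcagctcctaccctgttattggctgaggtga
Mcm7, chr5:138171884-138172133, minus strand: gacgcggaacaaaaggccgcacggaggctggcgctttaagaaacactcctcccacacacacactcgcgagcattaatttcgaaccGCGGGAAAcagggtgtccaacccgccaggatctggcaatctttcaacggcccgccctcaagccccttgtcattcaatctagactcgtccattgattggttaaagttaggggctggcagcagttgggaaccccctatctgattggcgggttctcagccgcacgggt
Mcm10, chr2:5012792-5013041, minus strand: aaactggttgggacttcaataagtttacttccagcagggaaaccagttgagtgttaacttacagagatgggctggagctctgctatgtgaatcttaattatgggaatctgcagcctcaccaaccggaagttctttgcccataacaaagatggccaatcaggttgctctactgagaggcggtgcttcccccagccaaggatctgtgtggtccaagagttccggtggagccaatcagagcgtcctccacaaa
In the Mcm5 promoter 2 overlapping matches form 1 run that starts 153 bases before the gene start. Mcm6 had 3 matches upstream, in 2 runs. The table holds 2 promoters of Mcm7, of which the one shown has the match.

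Shorter windows of at most 48 bases are given for 3 members with different outcomes in tumors: Pola1, higher than in non-tumor and normal liver, Rfc3, higher than in normal liver, and E2f7, lower than in normal liver.
Pola1, chrX:93632266-93632313, minus strand: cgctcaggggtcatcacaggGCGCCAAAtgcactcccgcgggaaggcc
Rfc3, chr5:151651209-151651238, minus strand: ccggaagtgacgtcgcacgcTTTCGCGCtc
E2f7, chr10:110745221-110745268, plus strand: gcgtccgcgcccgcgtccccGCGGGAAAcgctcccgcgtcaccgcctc
Among members in the table, 9 of 16 that were higher in tumors than in normal liver held a match, as did 1 of 5 that were lower, 3 of 8 that were not called and 2 of 5 that were not tested. No match was found in this window for Ccne1, Rrm2, Mcm2, Mcm10, Tk1 or E2f8. A match describes letters and is not evidence of binding, and its absence says only that these letters are not there.

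Tumors of the arsenite line were compared first with non-tumor liver of the same line. The members moved in both directions. Of the 35 tested, 13 were called higher in tumors, where 17.1% of all genes were, and 5 were called lower, where 29.9% were. The median log2 difference was 0.45 over the members and -0.13 over all genes. Of all called genes 36.3% were higher, against 53.6% when arrays were scaled on the probes detected on all arrays and 48.1% after quantile normalisation. On the detected probes 20 members were higher, where 24.6% of all genes were, and 4 lower, where 21.3% were. After quantile normalisation 13 members were higher, where 22.8% of all genes were, and 5 lower, where 24.6% were. Tumor and non-tumor values did not overlap for 21 members, where 56.4% of all genes did not. Gins2, Tyms and Exo1 were well above background on all 3 arrays of tumors alone and entered the test through tumors. Without them the counts were 10 higher and 5 lower of 32. The shares over all genes still include every gene that entered through tumors alone, so they do not match these reduced counts. Equal sample numbers deviated together in these 2 groups, and with the number as a block the counts were 7 higher, where 14.9% of all genes were, and 4 lower, where 24.1% were. The 7 were Mcm2, Lig1, Rrm2, Ccne1, E2f2, Exo1 and Msh6, and the 4 were Mcm10, Gins1, Tk1 and E2f8.

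Against normal liver of the same line, 21 members were called higher, where 17.1% of all genes were, and 6 were called lower, where 30.9% were. Without Gins2, Tyms and Exo1 the counts were 19 higher and 6 lower of 32, and the shares over all genes were again not reduced in that way. The median log2 difference was 0.60 over the members and -0.14 over all genes. Of all called genes 35.7% were higher, against 61.9% when arrays were shifted to their median, 50.7% on the detected probes, 48.5% after quantile normalisation and 21.7% with no filter on dim probes. With a shift to the median, 23 members were higher, where 20.9% of all genes were, and 2 lower, where 12.9% were. Tumor and normal values did not overlap for 27 members, where 58.7% of all genes did not. Both comparisons use the same 3 tumors, so their values are given side by side below. Against all 9 arrays outside tumors, 12 members were higher on every tumor array, where 15.2% of all genes were, and 5 were lower on every tumor array, where 28% were. The 12 were Mcm2, Mcm5, Mcm6, Gins2, Pola1, Rfc3, Lig1, Rrm2, Ccne1, E2f2, Exo1 and Msh6. Gins2 and Exo1 are among them and entered the test through tumors alone, and without such members 10 of 32 were higher on every tumor array. The 15.2% of all genes still includes such genes. The 5 were Orc6, Mcm10, Gins1, Tk1 and E2f8.

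**Figure D1:**
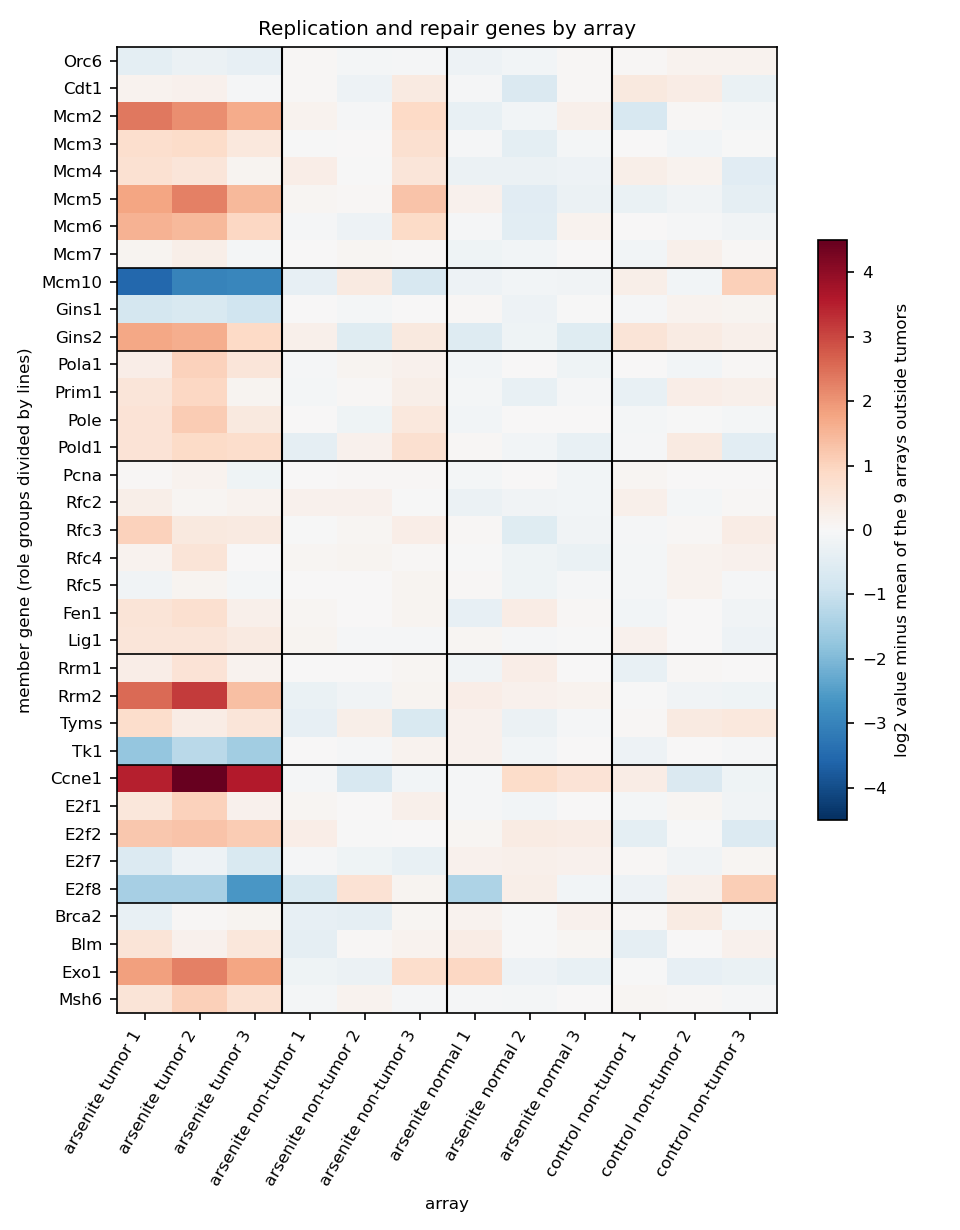
Log2 value of each tested member (rows, divided by role) on each array (columns, tumors at the left), after subtraction of its mean in the 9 arrays that hold no tumor. Red rows such as Ccne1, Rrm2 and Mcm2 and blue rows such as Mcm10, Tk1 and E2f8 stand out in the tumor columns, while Pcna and Mcm7 stay pale.

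Among origin licensing genes, Mcm2, Mcm5 and Mcm6 rose and Orc6 fell against non-tumor liver, of 8 tested. Over all genes 17.1% were called higher and 29.9% lower there. Mcm2, a subunit of the helicase ring (chromosome 6, mm9, probe 88833619 to 88833678), had log2 values of 0.22, -0.05 and -0.48 in tumors, against -2.00, -2.21 and -1.23 in non-tumor liver, -2.47, -2.29 and -1.92 in normal liver and -2.88, -2.09 and -2.23 in control non-tumor liver. Every tumor lay above every other array, and Mcm2 was well above background on 2 of 3 normal arrays. It rose by 1.71 ± 0.30 on the log2 scale (SE, n = 3 per group) against non-tumor liver, 3.28-fold (adjusted p = 0.00088), and by 2.12 ± 0.30 against normal liver, 4.36-fold (adjusted p = 0.00023).

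Mcm5, which sits at the gate of the ring (chromosome 8, probe 77651350 to 77651410), had log2 values of -0.06, 0.44 and -0.37 in tumors, against -1.74, -1.76 and -0.53 in non-tumor liver and -1.63, -2.33 and -2.09 in normal liver. The third non-tumor sample stood well above the other non-tumor samples, but below all tumors. The log2 difference was 1.34 ± 0.33 against non-tumor liver (adjusted p = 0.0069, and adjusted p = 0.081 with the number as a block) and 2.02 ± 0.33 against normal liver (adjusted p = 0.00061).

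Mcm6 (chromosome 1, probe 130228178 to 130228237) had log2 values of 3.32, 3.19 and 2.68 in tumors, against 1.68, 1.52 and 2.59 in non-tumor liver. The third non-tumor sample again came close to the lowest tumor, and the groups did not overlap. The log2 difference was 1.13 ± 0.28 (adjusted p = 0.0067, and adjusted p = 0.085 with the block), and against normal liver 1.44 ± 0.28 (adjusted p = 0.0017).

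The other subunits of the same ring differed less in level. Mcm3 had log2 values of 1.13, 1.22 and 0.85 in tumors, against 0.37, 0.41 and 1.11 in non-tumor liver, a difference of 0.44 ± 0.20 that was not called (adjusted p = 0.092). Against normal liver it rose by 0.87 ± 0.20 (adjusted p = 0.0045). Without the third non-tumor sample, Mcm3 passed against non-tumor liver at 0.68 (adjusted p = 0.0055). Mcm3 also passed there on the detected probes and with normexp (adjusted p = 0.038 and 0.043). Its second probe gave log2 differences of 0.45 and 0.88 in the 2 comparisons, close to the first.

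Mcm4 differed by 0.18 ± 0.22 from non-tumor liver (adjusted p = 0.54) and rose by 0.70 ± 0.22 against normal liver (adjusted p = 0.025). That last call was lost when any of 5 single arrays was left out, with adjusted p up to 0.085. Mcm7 had log2 values of 2.45, 2.58 and 2.24 in tumors, against 2.33, 2.42 and 2.38 in non-tumor liver and 2.13, 2.20 and 2.32 in normal liver. Its groups overlapped, and the differences of 0.04 ± 0.12 and 0.20 ± 0.12 were not called (adjusted p = 0.78 and 0.17). Against normal liver Mcm7 was called higher on the detected probes, at 0.35 (adjusted p = 0.027). There it was also called with normexp and after quantile normalisation (adjusted p = 0.031 and 0.039).

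Of the factors that place the ring on DNA, Cdt1 overlapped between all groups, with differences of 0.04 ± 0.24 and 0.32 ± 0.24 that were not called. Orc6, a subunit of the origin recognition complex, had log2 values of 0.23, 0.42 and 0.29 in tumors, against 0.71, 0.59 and 0.62 in non-tumor liver, and fell by 0.33 on the log2 scale (adjusted p = 0.017, and adjusted p = 0.082 with the block). Without the first non-tumor sample or the first tumor it was not called (adjusted p = 0.062 and 0.054). The call was also lost on the detected probes, at -0.16 (adjusted p = 0.16), and with the median shift (adjusted p = 0.057). Against normal liver the difference was -0.26 ± 0.10 (adjusted p = 0.044), a call lost in 11 of the 16 alternative settings. Orc1 and Cdc6 were not well above background on any array and were not tested.

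Helicase activation held the steepest fall of any tested member. Mcm10, which binds the active helicase and polymerase alpha (chromosome 2, mm9, probe 4911785 to 4911844), had log2 values of 2.09, 2.62 and 2.69 in tumors, against 5.28, 6.02 and 4.92 in non-tumor liver, 5.39, 5.52 and 5.47 in normal liver and 5.90, 5.49 and 6.70 in control non-tumor liver. All tumors lay far below all other arrays. The log2 difference was -2.94 ± 0.33 against non-tumor liver (7.69-fold lower, adjusted p = 5.2e-05) and -2.99 ± 0.33 against normal liver (7.96-fold lower, adjusted p = 4.8e-05). On all 9 arrays outside tumors the level was more than 4.9 above the 75th percentile on the log2 scale. The array carried 1 probe for Mcm10, so no second probe checks this level, and the probe's target was not checked against a genome here.

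The GINS subunits moved in opposite directions. Gins1 (chromosome 2, probe 150756868 to 150756927) had log2 values of 0.13, 0.24 and 0.06 in tumors, against 0.96, 0.86 and 0.96 in non-tumor liver, with no overlap. It fell by 0.79 on the log2 scale (adjusted p = 0.00015) against non-tumor liver and by 0.73 (adjusted p = 0.00024) against normal liver, where a shift to the median ended the call (adjusted p = 0.066). Gins2 (chromosome 8, probe 123112627 to 123112686) had log2 values of -1.63, -1.75 and -2.50 in tumors, against -3.17, -3.93 and -2.95 in non-tumor liver and -3.96, -3.58 and -3.92 in normal liver.

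Gins2 was higher in tumors than in non-tumor liver by 1.39 ± 0.28 on the log2 scale (adjusted p = 0.0022, and adjusted p = 0.051 with the block), and it was well above background on 1 of 3 non-tumor arrays. In normal liver no array was well above background for Gins2, and the rise was at least 3.54-fold (adjusted p = 0.00036). For every such lower bound, dim signals under the lowest signal still well above background on their array were raised to it. Cdc45, the third part of the active helicase, had log2 values of -3.85, -2.10 and -3.38 in tumors, against -3.12, -2.94 and -3.09 in non-tumor liver, and was not tested because no group was above background on all 3 arrays.

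**Figure D2:**
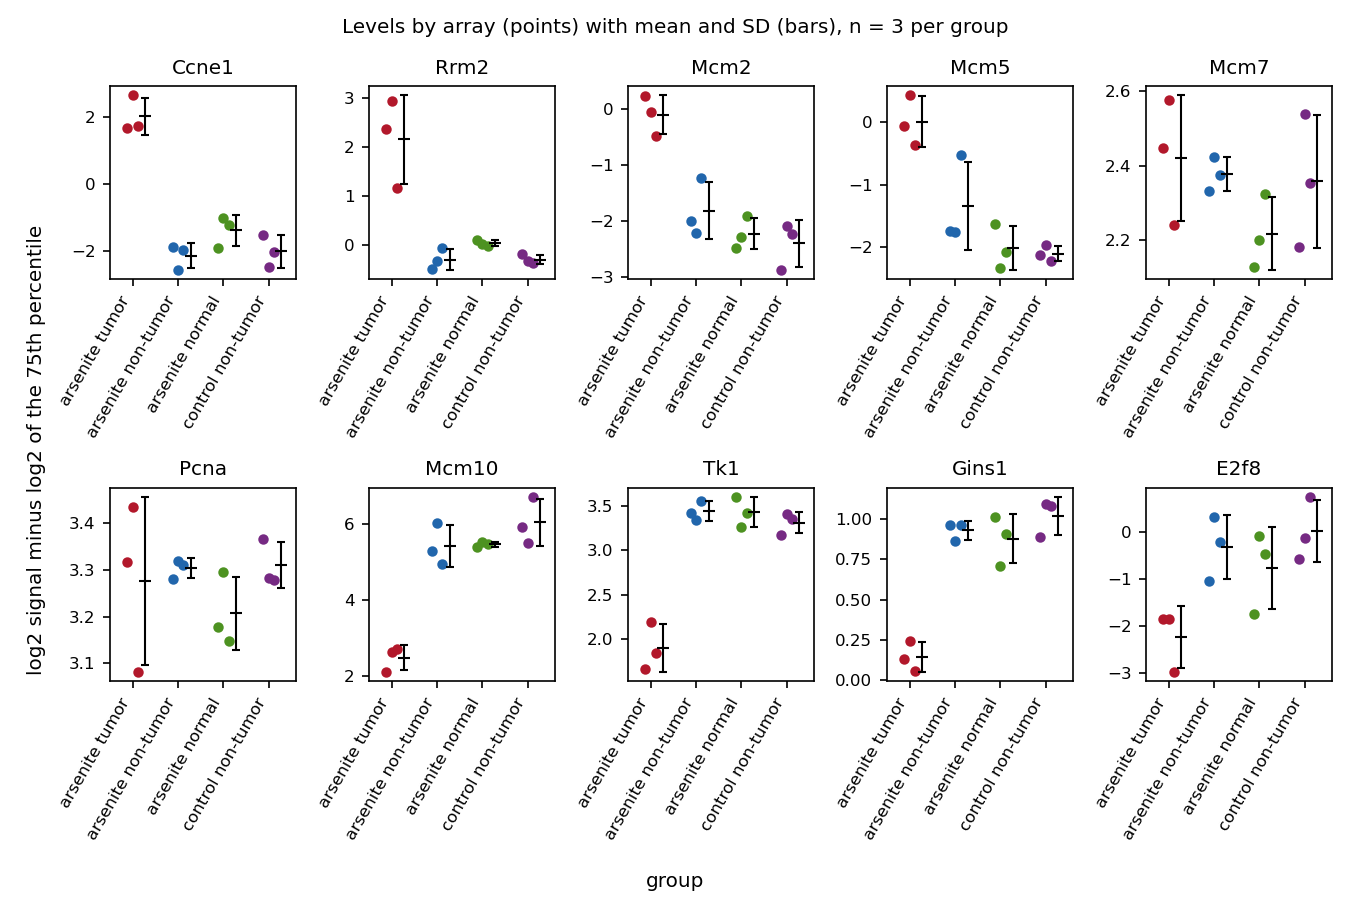
Log2 levels of 10 members on each array (points) by group, tumors at the left, with the group mean and SD (n = 3) as bars and a separate vertical scale for each gene. The tumor points of Ccne1, Rrm2, Mcm2 and Mcm5 lie above all others, those of Mcm10, Tk1, Gins1 and E2f8 lie below all others, and those of Mcm7 and Pcna overlap.

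All 4 genes of the polymerases and primase were called higher in tumors than in normal liver, and 2 of 4 than in non-tumor liver, where 17.1% of all genes were in each comparison. Pola1, the catalytic subunit of polymerase alpha (chromosome X, probe 90550189 to 90550248), had log2 values of -0.36, 0.35 and -0.12 in tumors, against -0.71, -0.54 and -0.47 in non-tumor liver and -0.78, -0.64 and -0.86 in normal liver. The log2 difference was 0.53 ± 0.16 against non-tumor liver (adjusted p = 0.021, and adjusted p = 0.063 with the block) and 0.71 ± 0.16 against normal liver (adjusted p = 0.0044). The call against non-tumor liver was lost without the first non-tumor sample (adjusted p = 0.073) and without the second tumor (adjusted p = 0.057), as well as in a fit of 6 arrays (adjusted p = 0.076) and with the median shift (adjusted p = 0.066).

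Pole, the catalytic subunit of the leading strand polymerase, overlapped between tumors (-0.19, 0.32 and -0.39) and non-tumor liver (-0.80, -1.0 and -0.34). Its log2 differences were 0.63 ± 0.19 (adjusted p = 0.021, and adjusted p = 0.16 with the block) and 0.76 ± 0.19 against normal liver (adjusted p = 0.0084). The Pole call against non-tumor liver was lost without the first or second non-tumor sample or the second tumor (adjusted p = 0.065, 0.082 and 0.074). It was also lost in a fit of 6 arrays, with the median shift and with normexp (adjusted p = 0.086, 0.053 and 0.055). Pold1, of the lagging strand polymerase, and Prim1, the primase subunit, rose against normal liver by 0.89 ± 0.28 (adjusted p = 0.022) and 0.70 ± 0.22 (adjusted p = 0.023). Against non-tumor liver their differences of 0.58 ± 0.28 and 0.45 ± 0.22 were not called (adjusted p = 0.11 each). Prim1 was called there on the detected probes, with normexp and without the third tumor (adjusted p = 0.038, 0.047 and 0.028). Pold1 was called there without the third non-tumor sample (adjusted p = 0.024). The calls against normal liver were lost with 1 array left out, Pold1 without the second or the third normal sample or tumor (adjusted p 0.051 to 0.071) and Prim1 without the second normal sample or the first or second tumor (adjusted p 0.054 to 0.084).

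The clamp itself showed no called difference. Pcna (chromosome 2, probe 132075022 to 132075054) had log2 values of 3.32, 3.43 and 3.08 in tumors, against 3.28, 3.32 and 3.31 in non-tumor liver, 3.18, 3.29 and 3.15 in normal liver and 3.37, 3.28 and 3.28 in control non-tumor liver. The differences of -0.03 ± 0.10 and 0.07 ± 0.10 were within the spread of the arrays (adjusted p = 0.84 and 0.58), and the sign of the difference from non-tumor liver changed with the scaling.

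Lig1, the ligase that joins Okazaki fragments (chromosome 7, probe 13896609 to 13896667), had log2 values of 1.86, 1.87 and 1.73 in tumors, against 1.45, 1.27 and 1.28 in non-tumor liver and 1.42, 1.27 and 1.29 in normal liver. It rose by 0.48 ± 0.12 (adjusted p = 0.0057) and 0.49 ± 0.12 (adjusted p = 0.0052), small differences with no overlap, the first of which was not called after a shift to the median (adjusted p = 0.067). Fen1, the nuclease that trims the fragments, rose by 0.50 ± 0.17 against normal liver (adjusted p = 0.033). Against non-tumor liver Fen1 differed by 0.43 ± 0.17 and was not called (adjusted p = 0.062). There it was called on the detected probes, with normexp and after quantile normalisation (adjusted p = 0.019, 0.029 and 0.028). It was also called there without the third tumor (adjusted p = 0.025). The Fen1 call against normal liver was lost without the first or the third normal sample or the first or second tumor (adjusted p 0.064 to 0.12). A fit of 6 arrays lost it as well (adjusted p = 0.1).

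Of the 4 clamp loader subunits on the list, Rfc2, Rfc3 and Rfc4 rose against normal liver and none was called against non-tumor liver. Over all genes 17.1% were called higher in each comparison. Rfc3 had log2 values of -0.65, -1.25 and -1.30 in tumors, against -1.72, -1.62 and -1.40 in non-tumor liver and -1.66, -2.26 and -1.88 in normal liver. Its differences were 0.51 ± 0.20 (adjusted p = 0.061) and 0.87 ± 0.20 (adjusted p = 0.0056). The first was called on the detected probes and without the third tumor (adjusted p = 0.022 and 0.046). Rfc2 and Rfc4 rose by 0.36 ± 0.11 and 0.42 ± 0.14 against normal liver (adjusted p = 0.019 and 0.034), and Rfc5 differed by 0.02 ± 0.11. The Rfc2 call was lost without the first normal sample or the first tumor (adjusted p = 0.067 and 0.062), and that of Rfc4 without the second or the third normal sample or the second tumor (adjusted p 0.081 to 0.12). The second Rfc4 probe gave 0.06 against normal liver, far from the first, and the mean over both probes was not called (adjusted p = 0.32).

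Deoxynucleotide supply held both a strong rise and a strong fall. Rrm2, the S phase subunit of ribonucleotide reductase (chromosome 12, probe 25398824 to 25398883), had log2 values of 2.37, 2.93 and 1.16 in tumors, against -0.50, -0.34 and -0.08 in non-tumor liver, 0.09, 0.01 and -0.03 in normal liver and -0.20, -0.34 and -0.38 in control non-tumor liver. The tumors spread over 1.77, more than those of any other tested member, yet all lay above the other arrays. Rrm2 rose on the log2 scale by 2.46 ± 0.34 (5.51-fold, adjusted p = 0.00022) against non-tumor liver and by 2.13 ± 0.34 (4.37-fold, adjusted p = 0.00058) against normal liver.

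Its partner Rrm1, which is present outside S phase too, differed by 0.32 ± 0.15 and 0.31 ± 0.15 and was not called (adjusted p = 0.11 and 0.12). On the detected probes Rrm1 was called higher in both comparisons (adjusted p = 0.023 and 0.03). Against normal liver it was also called with the median shift and with normexp (adjusted p = 0.038 and 0.049). Tyms, thymidylate synthase, had log2 values of -2.33, -2.76 and -2.57 in tumors, against -3.48, -2.85 and -3.80 in non-tumor liver, where no array was well above background. The measured rise was 1.77-fold (adjusted p = 0.014, and adjusted p = 0.082 with the block). It is a ratio to signals not well above background and no lower bound. With normexp background correction the log2 difference was 0.03. Without the third non-tumor sample the adjusted p was 0.052, and without the first tumor it was 0.05. With the median shift and after quantile normalisation it was 0.059 and 0.053. Against normal liver, where no array was well above background either, the measured difference was 1.51-fold and not called (adjusted p = 0.055). There Tyms was called in a fit of 6 arrays and with the block (adjusted p = 0.031 and 0.018). It was also called on the detected probes, with the median shift and after quantile normalisation (adjusted p = 0.019, 0.044 and 0.044). With normexp the log2 difference from normal liver was -0.06.

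Tk1, the thymidine kinase of the salvage route (chromosome 11, probe 117676845 to 117676904), had log2 values of 1.66, 2.19 and 1.84 in tumors, against 3.43, 3.35 and 3.56 in non-tumor liver, 3.60, 3.27 and 3.42 in normal liver and 3.18, 3.41 and 3.36 in control non-tumor liver. All tumors lay below all other arrays. It fell by 1.54 on the log2 scale (2.92-fold lower, adjusted p = 1.6e-05) against non-tumor liver and by 1.53 (2.89-fold lower, adjusted p = 1.8e-05) against normal liver. A second probe for Tk1 averaged -0.56 ± 0.19 in tumors and 0.83 ± 0.08 in non-tumor liver (SD, n = 3 each), lower in tumors as for the first probe, and the third was not above background.

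Among G1/S regulators, Ccne1 showed the steepest rise of any tested member. Cyclin E1 (chromosome 7, mm9, probe 38882937 to 38882960) had log2 values of 1.66, 2.65 and 1.73 in tumors, against -1.89, -2.59 and -1.97 in non-tumor liver, -1.91, -1.03 and -1.24 in normal liver and -1.52, -2.50 and -2.04 in control non-tumor liver. The lowest tumor stood above every other array by more than 2 on the log2 scale. Ccne1 rose on the log2 scale by 4.16 ± 0.35 (17.9-fold, adjusted p = 7.9e-06) against non-tumor liver and by 3.41 ± 0.35 (10.6-fold, adjusted p = 2.9e-05) against normal liver.

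A second Ccne1 probe was above background on 1 array, a tumor, and gave no test. Ccne2, the other E cyclin, was not above background on any array. E2f2, an activating E2F (chromosome 4, probe 135750562 to 135750621), had log2 values of 1.09, 1.16 and 1.01 in tumors, against 0.17, -0.14 and -0.09 in non-tumor liver and -0.03, 0.25 and 0.21 in normal liver. It rose by 1.11 ± 0.15 (adjusted p = 0.0002) and 0.95 ± 0.15 (adjusted p = 0.00055).

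E2f1, an activating E2F as well, had log2 values of -0.62, -0.08 and -0.96 in tumors, against -1.05, -1.12 and -0.90 in non-tumor liver and -1.19, -1.28 and -1.14 in normal liver. It rose against normal liver by 0.65 ± 0.18 (adjusted p = 0.015), while the difference of 0.47 ± 0.18 from non-tumor liver was not called (adjusted p = 0.059). Without the third tumor it was called there too, at 0.67 (adjusted p = 0.007). The same held on the detected probes and with array weights (adjusted p = 0.019 and 0.039). In a fit of the 6 arrays of tumors and normal liver, the call against normal liver was lost (adjusted p = 0.06).

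Of the E2Fs known as repressors, E2f8 fell in both comparisons and E2f7 in 1. E2f8 (chromosome 7, probe 56121860 to 56121919) had log2 values of -1.85, -1.85 and -2.99 in tumors, against -1.04, 0.31 and -0.23 in non-tumor liver, -1.75, -0.08 and -0.46 in normal liver and -0.57, -0.12 and 0.75 in control non-tumor liver. Its fall was 1.91 on the log2 scale against non-tumor liver (SE 0.53, adjusted p = 0.013), and without the second non-tumor sample the adjusted p was 0.051. Against normal liver the difference was -1.46 ± 0.53 (adjusted p = 0.042), a call that was lost in 10 of the 16 alternative settings. E2f7 differed by -0.31 ± 0.13 from non-tumor liver (adjusted p = 0.084) and fell by 0.71 on the log2 scale against normal liver (adjusted p = 0.0015). A second E2f7 probe was well above background on 3 of 3 tumor arrays, 0 of 3 non-tumor arrays and 2 of 3 normal arrays. Against normal liver both probes gave negative log2 differences, -0.71 and -0.08, and the call was lost with the mean over both probes (adjusted p = 0.19) and with the median shift (adjusted p = 0.07). Against non-tumor liver, where the main fit did not call E2f7, the mean over both probes gave 0.31 and was not called. There E2f7 was called lower with normexp, at -0.36 (adjusted p = 0.003), and without the second tumor, at -0.46 (adjusted p = 0.011).

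**Figure D3:**
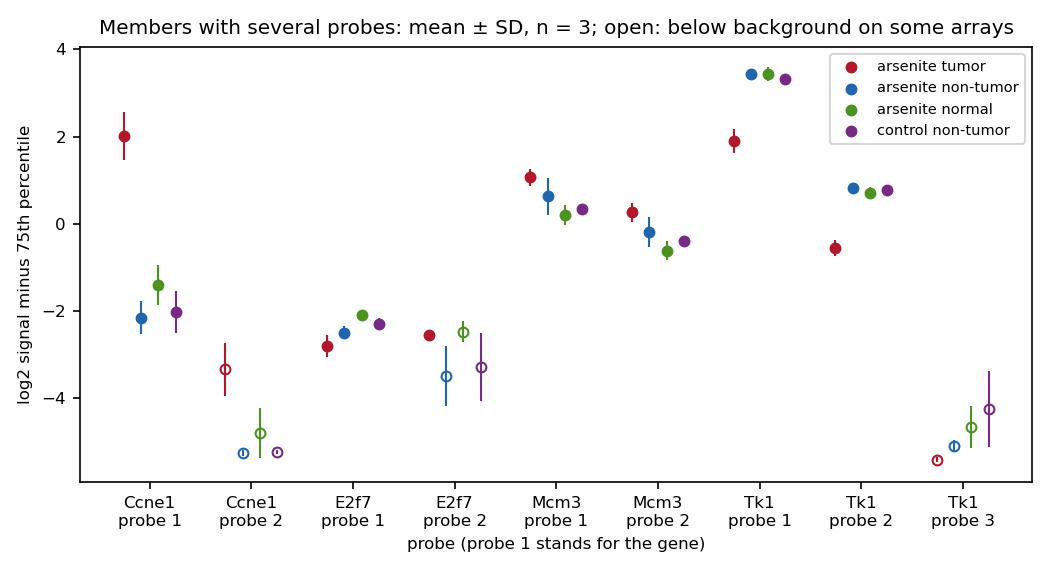
Mean log2 level with SD (n = 3) of each probe of the members Ccne1, E2f7, Mcm3 and Tk1 in the 4 groups, tumors at the left of each set, and open points where a probe was below background on some arrays of the group. The pairs for Mcm3 and the first pair for Tk1 run alike, with tumors at 1.07 and 0.26 for Mcm3 and at 1.90 and -0.56 for Tk1, while the E2f7 probes differ in which group is lowest, the second being below background on all 3 non-tumor arrays.

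Of the 4 tested checkpoint and repair members, Msh6 and Exo1 were called higher in both comparisons, where 17.1% of all genes were in each. None was called lower, where 29.9% and 30.9% of all genes were. Exo1 entered the test through tumors alone. Msh6, of the mismatch recognition dimer (chromosome 17, probe 88390143 to 88390202), had log2 values of 2.50, 3.01 and 2.62 in tumors, against 1.82, 2.09 and 1.88 in non-tumor liver and 1.87, 1.85 and 1.96 in normal liver. It rose by 0.78 ± 0.13 (adjusted p = 0.00073) and 0.81 ± 0.13 (adjusted p = 0.00055), with no overlap.

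Exo1, a nuclease of mismatch repair and end resection, had log2 values of -2.90, -2.49 and -2.97 in tumors, against -4.95, -5.04 and -3.98 in non-tumor liver, where it was not well above background on any array. On the processed signal the rise was at least 2.43-fold against non-tumor liver and at least 2.34-fold against normal liver (adjusted p = 0.0015 each). With normexp background correction the log2 differences were only 0.12 and 0.04, and neither was called (adjusted p = 0.43 and 0.78). The bounds therefore hold for the processed signal alone.

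Brca2, which acts in homologous recombination, and Blm, a helicase of recombination, were measured in all groups. Their log2 differences from non-tumor liver were 0.17 ± 0.17 and 0.49 ± 0.20, and from normal liver -0.15 ± 0.17 and 0.29 ± 0.20, none of them called (adjusted p between 0.068 and 0.5). Against non-tumor liver Blm was called higher on the detected probes and without the second tumor (adjusted p = 0.02 and 0.049). Chek1, the checkpoint kinase, was not above background on any array. Brca1 was above background on 1 array, the first non-tumor sample of the arsenite line, with a log2 value of -2.67. Fancd2 had -1.87 in the first tumor, against -5.45 and -5.09 in the others, and lay between -5.21 and -4.70 on the other 9 arrays.

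**Figure D4:**
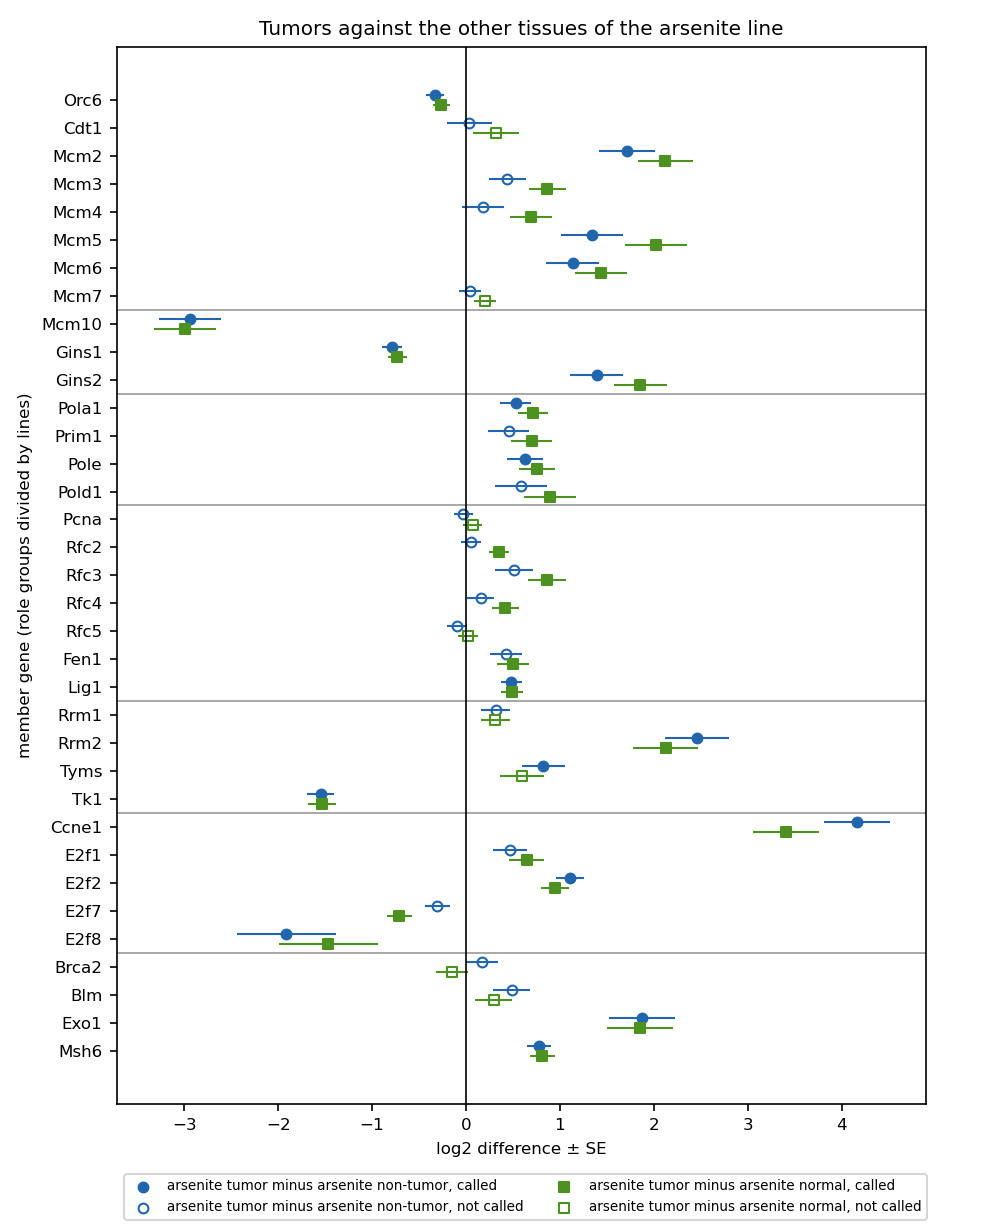
Log2 difference with SE of each tested member (rows, divided by role) between tumors and non-tumor liver (circles) and between tumors and normal liver (squares), filled where called at adjusted p under 0.05. The differences run from 4.16 for Ccne1 to -2.99 for Mcm10.

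The 3 tumors did not carry the members equally. The highest tumor value was in tumor 2 for 25 of 35 members (71.4%), where 37.9% of all genes were highest in that tumor. The lowest tumor value was in tumor 3 for 23 members (65.7%), where 31.0% of all genes were lowest there. The median departure of the members from their mean in the 9 arrays that hold no tumor was 0.56, 0.57 and 0.24 in tumors 1 to 3. Among non-tumor samples it was 0.01, 0.02 and 0.13, the last being the sample with raised Mcm2, Mcm5 and Mcm6 values. The median range among tumors was 0.50 over the members and 0.34 over all genes. Of the tested members, Lig1 varied least, over 0.14. The proliferation marker Mki67, which is no member, had log2 values of 2.19, 2.90 and 0.98 in tumors, against -1.57, -2.04 and -1.31 in non-tumor liver, and it too was highest in tumor 2 and lowest in tumor 3.

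Neither comparison outside tumors called a member. Arsenite non-tumor liver was compared with normal liver of the same line, and no member was called in either direction, where 0% of all genes were. The limma fit gave 3 members with an unadjusted p under 0.05, Mcm4, Rfc2 and E2f7, and 1236 of all genes. The groups did not overlap for 8 members, where 15.2% of all genes did not. The largest difference of a tested member was -0.75 ± 0.35, for Ccne1 (adjusted p = 0.74). Mcm5 differed by 0.68 ± 0.33 (adjusted p = 0.76), of which the third non-tumor sample at -0.53 gave the most.

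Arsenite non-tumor liver was then compared with control non-tumor liver, which asks what exposure of the F0 dams left in F2 liver. Both groups lay on 1 slide. No member was called higher, where 0% of all genes were, or lower, where 0.00552% were, a single gene, Sh3bp4, named after its value was seen. The limma fit gave an unadjusted p under 0.05 for 3 members, E2f2, Tyms and Mcm5, and for 1018 of all genes. E2f2 had log2 values of 0.17, -0.14 and -0.09 in arsenite non-tumor liver, against -0.56, -0.15 and -0.73 in control non-tumor liver, a difference of 0.46 ± 0.15 (adjusted p = 0.68). Mcm5 differed by 0.77 ± 0.33 (adjusted p = 0.86) and was not called. Tyms was well above background on 0 of 3 arsenite non-tumor arrays and 2 of 3 control non-tumor arrays. Its measured level was 1.5-fold lower in arsenite non-tumor liver and was not called either (adjusted p = 0.81). The groups did not overlap for 4 members, where 10.5% of all genes did not. The median over the members was 0.02, and a difference that misses the threshold does not show that the lines are alike.

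The members were set beside 131 other genes of replication and repair in 10 lists, of which 118 were tested. Against non-tumor liver 22 were called higher and 33 lower in tumors, with a median log2 difference of -0.07. Against normal liver 29 were called higher and 30 lower, with the same median of -0.07. Over all genes 17.1% were called higher in either comparison, and 29.9% and 30.9% lower.

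Among other licensing and firing genes, 3 of 13 rose and 3 fell against non-tumor liver. The helicase Recql4 rose by 0.74 ± 0.19 on the log2 scale (adjusted p = 0.0075), and Mcmbp, a binding protein of the MCM complex, fell by 0.60 on that scale (adjusted p = 0.00029). Of 15 other polymerase and lagging strand genes, 2 rose and 7 fell. Pold4, the small subunit of polymerase delta, averaged 4.28 ± 0.36 in tumors and 1.20 ± 0.20 in non-tumor liver (SD, n = 3 each), 8.47-fold higher (adjusted p = 7.6e-07). Rnaseh2c and Pole4 fell by 0.71 and 0.69 on the log2 scale.

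Of 7 other genes of nucleotide supply, none rose and 3 fell, with Shmt1, the cytosolic serine hydroxymethyltransferase, lower by 0.92 (log2 difference -0.92 ± 0.14, adjusted p = 0.00031). Of 12 other E2F, pocket protein and G1/S genes, 4 rose and 3 fell. Ccna2, the S phase cyclin A, averaged 0.53 ± 1.13 in tumors and -3.28 ± 0.35 in non-tumor liver (SD, n = 3 each, adjusted p = 6.6e-05). The pocket proteins moved apart, Rbl1 by 1.75 ± 0.37 and Rbl2 by -1.14 ± 0.13 (adjusted p = 0.0028 and 4.7e-05). Of 9 other checkpoint and fork protection genes, 1 rose, Timeless, by 1.71 ± 0.19 (adjusted p = 4.9e-05).

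Of 21 other genes of homologous recombination and the Fanconi pathway, 6 rose and 4 fell. Fancl, the ubiquitin ligase of the Fanconi pathway, fell by 1.74 on the log2 scale (adjusted p = 7.7e-07). Among mismatch repair genes, Pms1 fell by 1.72 on the log2 scale (adjusted p = 0.0017).

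The repair routes that also act outside S phase held more falls than rises, as all genes did. Of 14 base excision repair genes 3 rose and 6 fell, with the glycosylase Mpg up by 0.74 ± 0.13 and the glycosylase Nthl1 down (log2 difference -0.75 ± 0.11). Of 14 nucleotide excision repair genes 1 rose and 4 fell, and of 7 end joining genes 1 rose and 2 fell.

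**Figure D5:**
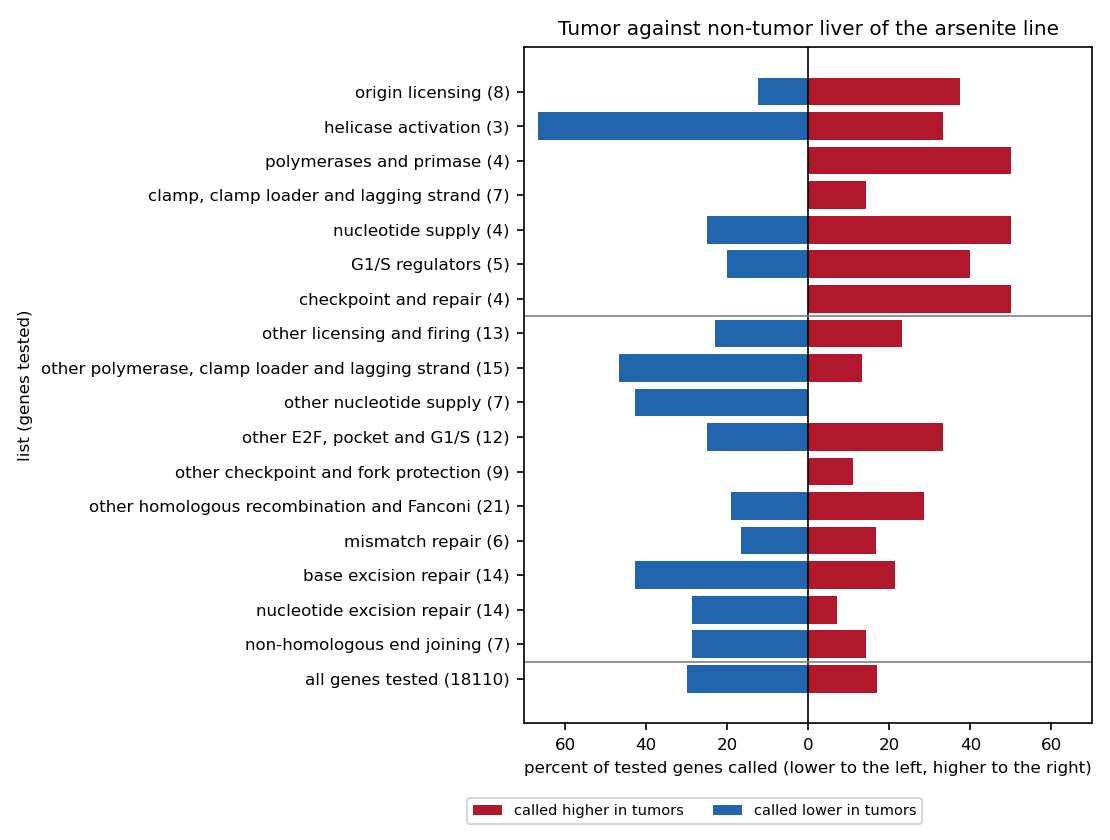
Percent of tested genes called higher (right) and lower (left) in tumors than in non-tumor liver, for the 7 role groups of members, the 10 lists of other replication and repair genes and, in the bottom row, all 18110 genes, with the number tested in brackets. Polymerases and primase, the clamp and lagging strand group, the checkpoint and repair members and other checkpoint genes have calls to the right alone. Other nucleotide supply has calls to the left alone. The checkpoint and repair calls include Exo1, which entered the test through tumors alone.

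Cell type markers were compared between tumors and non-tumor liver, where 17.1% of all genes were called higher and 29.9% lower. Summed levels are on the linear scale, so the brightest genes of a list weigh most. Of 9 tested macrophage markers 0 were called higher and 7 lower, and the summed level of the list on the linear scale was 35.4 to 59.6 in tumors, against 92.2 to 123 in non-tumor liver. Of 6 tested T and NK cell markers 1 was higher, Cd4, and 1 lower, Nkg7. Their log2 differences ran from -0.31 to 1.88, with a median of 0.05, so the list did not rise as a whole. The sums were 130 to 176 in tumors and 32.1 to 59.1 in non-tumor liver. Cd3d, Cd8a, Trac and Klrb1c were not tested. Of 4 tested B and plasma cell markers 2 were higher, with sums of 3.24 to 5.34 in tumors and 1.75 to 3.03 in non-tumor liver, and Pax5 and Blk were not above background on any array. Stellate cell and fibroblast markers were split, 4 higher and 3 lower of 8, with a median log2 difference of 0.86. Their sums were 22.2 to 32.7 in tumors and 69.2 to 75.2 in non-tumor liver. Of 4 tested erythroid markers 2 were lower, with sums of 26.8 to 66.7 in tumors and 61.5 to 159 in non-tumor liver, and Ahsp and Rhag were not above background in either. Of 9 tested hepatocyte markers 1 was higher and 2 lower, and their sums of 5657 to 6821 in tumors and 6304 to 6910 in non-tumor liver overlapped, with all 9 above background in every group. Endothelial markers were 1 higher and 3 lower of 8, neutrophil markers 0 higher and 2 lower of 5, and bile duct markers were not called, 4 of them tested. The part of these cells in the members' differences was not tested.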

How the data were processed

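The deposited scanner files hold the intensity of every spot, and the column used is the background-subtracted processed signal, per the file headers. They name software 10.7.3.1, where the submitters' processing notes name 12.0.3.1. The authors' deposited value table holds a linear ratio, which was checked to be the processed signal over the array's 75th percentile, with no centring. Here log2 signals were scaled by the 75th percentile of the 59305 spots that are no controls, and spots of a probe were averaged without outlier-marked ones. A probe was kept when well above background on all 3 arrays of a group (24156 probes), and the kept probe with the highest mean stood for the gene (18110 genes).

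Groups were compared with limma 3.58.1 (R 4.3.3), in 1 fit of 12 arrays with 2-sided moderated tests and Benjamini-Hochberg adjustment over all genes. On simulated data, the tumor against non-tumor comparison of 18110 genes recovered 144 of 200 genes changed by 1 and 174 of 200 changed by 2 on the log2 scale. In the data far more genes were called, 3091 higher and 5416 lower, so these counts do not give the recovery there. The number of arrays limits the precision. The share of spots well above background was 40.5% to 46.9% per array.

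Equal sample numbers in tumor and non-tumor arrays of the arsenite line deviated together (r = 0.13, 0.13 and 0.22 across genes). Blocked values are therefore given there, though the labels do not say that a number marks 1 mouse. In arsenite non-tumor against normal liver, equal numbers deviated together more weakly (r = 0.06, 0.10 and 0.06), still above every unequal pair (r up to 0.01). This and the other comparisons were not treated as paired. The named genes were all members, up to 3 called genes with the smallest p of each other list, and Mki67. Members, lists and alternatives were chosen with earlier results of these data known. Python 3.11.15 with pandas 2.3.3, numpy 2.4.6 and matplotlib 3.10.9 served for the rest. Probe positions are those of the array files (mm9), and promoters are RefSeq's (GRCm38.p6). Some genes of the lists are not reported here.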

Additional observations from a re-analysis of the deposited data

How the results depend on the processing

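Each result was recomputed under 10 other settings and with each array of the 2 groups left out. The slide as a block was not run, since slides 1 and 3 hold 1 group each. Of 18 members called against non-tumor liver, Mcm2, Rrm2, Ccne1, E2f2, Msh6, Mcm10, Gins1 and Tk1 kept their call in all 16 settings, as did 15 of 27 against normal liver (13 higher, 2 lower). Against non-tumor liver, 7 members were higher with the replicate block and 20 with scaling on detected probes. Against normal liver, shifting arrays to their median left 2 members and 2330 of 18110 genes (12.9%) lower. With no filter on dim probes 11069 genes were lower, but of 34740 tested. That is 31.9%, close to the 30.9% of the main fit. The replicate block changed no count of members by over 1.5 times in the other comparisons, which were not treated as paired.

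In arsenite non-tumor against normal liver, array weights called 1 gene higher and 4 lower, and the median shift 1 lower. Leaving out an array called 0 to 1 higher and 0 to 1 lower. Against control non-tumor liver, 4 genes were lower with 6 arrays, 4 with array weights, 3 with the median shift, 6 with no filter, and 0 with normexp or the replicate block. Leaving out an array called 0 to 2 higher and 0 to 2 lower.

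Differences that changed sign were called neither before nor after, and the cause was not tested. Against non-tumor liver, log2 differences became -0.0376 (Cdt1), -0.0305 (Mcm7) and -0.0208 (Rfc2) with the median shift. On detected probes they became 0.134 (Pcna) and 0.0649 (Rfc5), after quantile normalisation 0.133 (Pcna) and 0.0436 (Rfc5), and with normexp 0.0590 (Pcna) and 0.0153 (Rfc5). The mean over kept probes gave 0.309 (E2f7) and 0.0414 (Rfc5). With an array left out they ranged from -0.111 to 0.198 (Cdt1), -0.0331 to 0.134 (Mcm7), -0.105 to 0.0710 (Pcna), -0.0209 to 0.101 (Rfc2) and -0.0038 to 0.271 (Rfc4). Against normal liver they became 0.0890 (Brca2, median shift) and -0.0587 (Tyms, normexp), and with an array left out ranged from -0.0082 to 0.168 (Pcna) and -0.0590 to 0.0856 (Rfc5). For the 7 members not tested, signals near background limit what can be seen.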
